A study of Homo sapiens with 14 samples.

Results

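The ETS1 and FLI1 locus on chromosome 11 held 26 of the 14865 regions that were bound by NF-κB in L1236 cells, a long-established line of Hodgkin lymphoma cells. Of these, 21 were assigned to ETS1 (ENSG00000134954) and 5 to FLI1 (ENSG00000151702). The regions were chosen by position, as all regions whose closest gene or closest transcription start site (TSS) was one of the 2 genes, and the locus itself was chosen by its number of called regions with earlier results of these data known. Counts and levels at the locus are therefore given as a description, without a test. Chromatin of L1236 cells was precipitated with antibodies against p50 (goat polyclonal), RelA (rabbit polyclonal) or RelB (rabbit polyclonal), in 2 replicates each. The p52 samples were also 2, but one was made with a mouse monoclonal and the other with a rabbit polyclonal antibody. Input DNA without antibody was sequenced in 6 samples. All samples come from a single cell line without an untransformed counterpart.

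ETS1 and FLI1 are neighbouring genes that encode transcription factors of the ETS family, which recognize DNA with a GGAA core. ETS1 is expressed in lymphocytes and restrains the differentiation of B cells into plasma cells, and FLI1 acts in the development of blood cells, including megakaryocytes and B cells. NF-κB factors bind DNA as dimers. The precursors p105 and p100 are processed to p50 and p52, which have no transactivation domain of their own, whereas RelA, RelB and c-Rel have one. RelA and p50 form the typical dimer of the canonical pathway, and RelB and p52 that of the non-canonical pathway. In Hodgkin lymphoma cells both pathways are known to be active. c-Rel is not analysed here.

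The table gives a call and a number of reads for every subunit in every region and, where the subunit was called, the fold enrichment over input at the summit, the pileup of fragments at the summit, the summit position and 2 replicate signal values. Reads, enrichments and summits are from merged replicates and carry no replicate error, whereas a call also required a low irreproducible discovery rate (IDR) between the replicates. Reads are given per kb of region with an exact 95% Poisson interval in parentheses, which covers counting error only. No input was subtracted from the reads, and the boundaries of a region were set by the peaks called in it. Over all 14865 regions, 1654137 reads were counted for p50, 1810792 for p52, 315151 for RelA and 470788 for RelB. The reads of different subunits are on scales of their own.

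The 26 regions spanned 548.7 kb of hg18. ETS1 is transcribed from the minus strand, with its TSS at position 127948235 and its 3′ end 114.4 kb downstream, whereas the TSS of FLI1 lies at position 128069199 on the plus strand, 121.0 kb from that of ETS1. The genes thus point away from each other. The distances of the regions give 1 TSS for each gene, and other starts were not considered. Most ETS1 regions were far from the ETS1 TSS. Of the 21 ETS1 regions, 13 lay beyond the 3′ end of the gene, 7 in the gene and 1 upstream of it. Regions are named here by the distance of their nearer edge from the TSS, with plus for downstream. ETS1 regions reached from -6.8 to +362 kb, and 16 of them were more than 100 kb from the TSS, which holds for 18.1% of all regions. No region covered the ETS1 TSS, and the 63.7 kb between the +57 kb and the -6.8 kb regions held none. The FLI1 regions lay in the gene, between +0.53 and +63 kb. Only 1 of the 26 regions was within 1 kb of a TSS, compared with 20.1% of all regions. The 121.0 kb between the TSSs held 1 region, at -6.8 kb of ETS1, followed by 114.3 kb without any.

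Closest gene and closest TSS were the same gene for all 26 regions, whereas they differed for 18.4% of all regions. The nearest region before the locus was 1460 kb away. On the other side the next region was 102.0 kb away, and 7 regions followed within 500 kb, assigned to 4 other genes. Of the 8450 genes with at least 1 region, 3 had more regions than ETS1, and the median gene had 1. The locus was chosen by its number of called regions, so this high rank follows from the choice. For FLI1, 454 genes had more regions.

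p52 was the subunit called most often at the locus. Of the 26 regions, 23 were called for p52 (88.5%, with 73.3% over all regions) and 12 for p50 (46.2%, with 73.8% over all regions). RelB was called in 6 regions (23.1%, with 26.8% over all regions) and RelA in 1 (3.85%, with 3.31% over all regions). At ETS1, p52 was called in 20, p50 in 9, RelB in 4 and RelA in 1 of 21 regions. At FLI1, p52 and p50 were each called in 3 and RelB in 2 of 5 regions, and RelA in none. At the locus the share called for p52 was thus above that over all regions and the share for p50 below it, while those for RelA and RelB were near it. All but 2 of the locus regions were more than 10 kb from a TSS. Over all regions of that kind, 78.3% were called for p52 and 67.2% for p50. The median p50 reads per kb were 87.3 at the locus and 90.8 over all regions, and those of p52 were 118.2 and 91.4.

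The most frequent combination was p52 without the other 3 subunits, with 12 of 26 regions (46.2%, and 19.8% over all regions), 11 of them at ETS1. p50 and p52 without RelA or RelB were called in 6 regions (23.1%, and 31.8% over all regions). The 3 subunits p50, p52 and RelB were called in 3 regions (11.5%, and 17.1% over all regions), namely ETS1 +362 kb, ETS1 +75 kb and FLI1 +63 kb. p50 alone was called in 2 regions (7.69%, and 21.2% over all regions), ETS1 +152 kb and FLI1 +0.53 kb. A single region each was called for p52 with RelB (ETS1 +159 kb, 1.93% over all regions), for RelB alone (FLI1 +38 kb, 3.83% over all regions) and for all 4 subunits (ETS1 +254 kb, 2.35% over all regions).

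**Figure D1:**
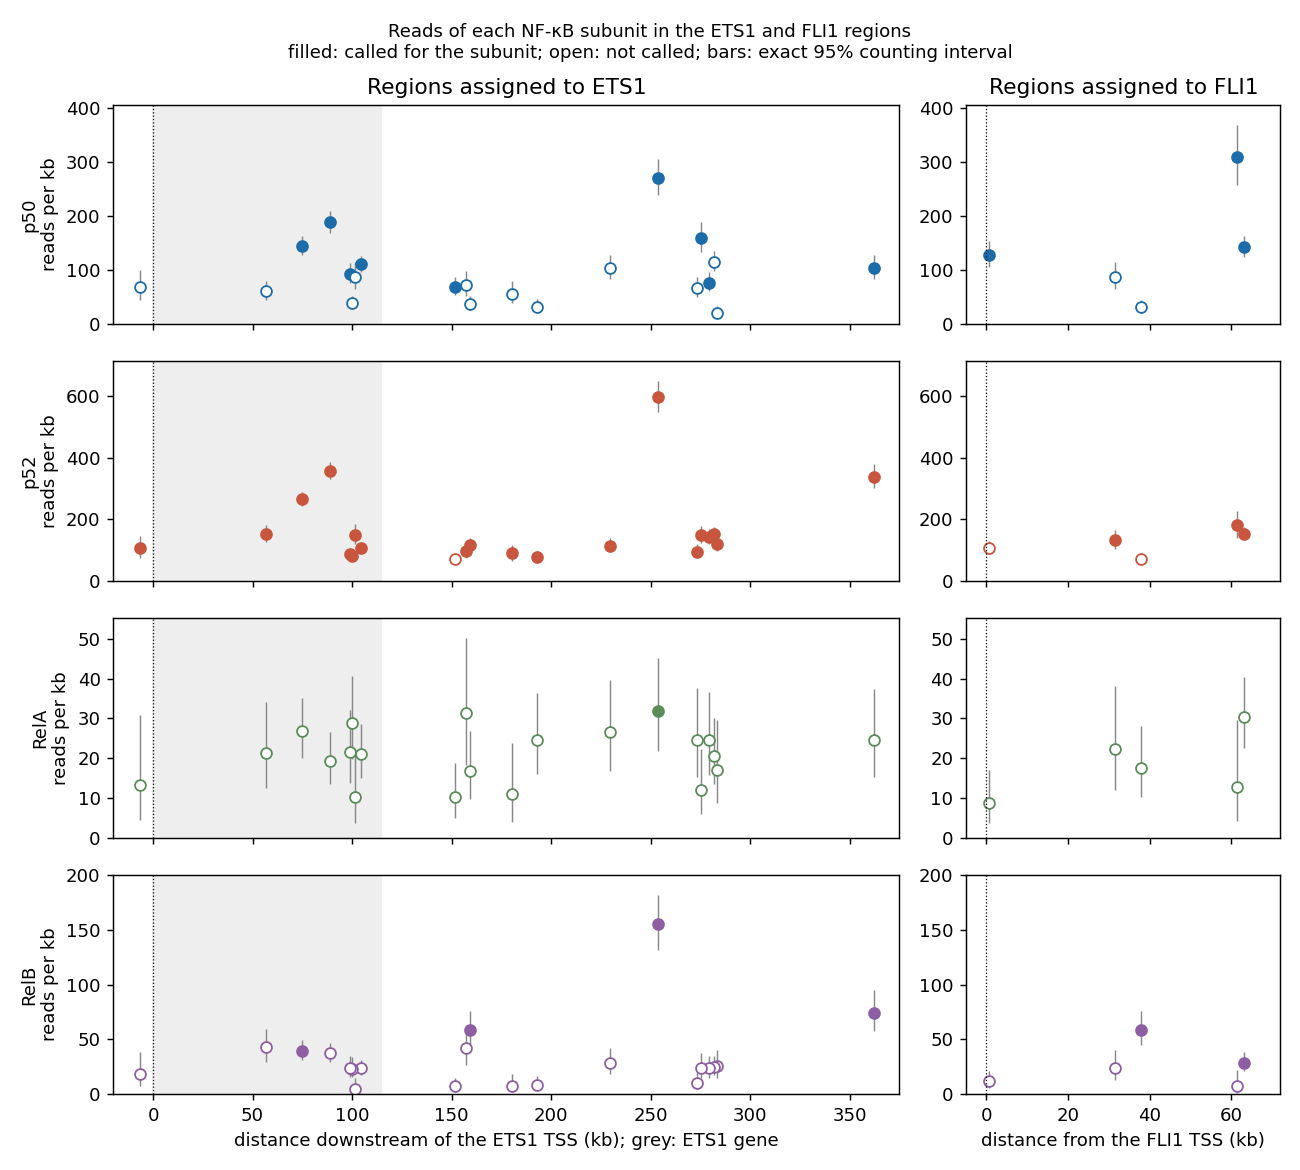
Reads per kb of p50, p52, RelA and RelB (rows, linear axes that differ between subunits) in each of the 21 ETS1 regions (left) and 5 FLI1 regions (right) against the distance from the TSS in kb. Filled points are called for the subunit, open points are not, and bars are exact 95% Poisson intervals. The +254 kb region stands highest for p52, RelA and RelB, and FLI1 +61 kb for p50; the grey area is the ETS1 gene, and no point lies at its TSS.

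The strongest binding at the locus was 254 kb downstream of the ETS1 TSS, at chr11:127693591-127694562 and outside both genes. This region had 263 reads of p50, 580 of p52, 31 of RelA and 151 of RelB on 972 bp. Per kb this was 270.6 (238.9 to 305.3) for p50 and 596.7 (549.1 to 647.3) for p52. For RelB it was 155.3 (131.6 to 182.2). It was the region with most reads per kb at the locus for p52, RelA and RelB, and next to FLI1 +61 kb for p50. Among all 14865 regions its p52 reads per kb stood at percentile 99.8, those of RelB at 99.2 and those of p50 at 97.8. p52 was enriched 58.1-fold over input, p50 37.3-fold and RelB 30.2-fold. The region alone held 17.4% of the RelB reads, 13.3% of the p52 reads and 9.54% of the p50 reads of the locus.

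RelA was called at the locus in this region alone, and weakly. It had 31.9 RelA reads per kb (21.7 to 45.3), an interval that overlaps those of most uncalled regions, for example the neighbouring ETS1 +230 kb with 26.5 (16.8 to 39.7). The RelA fold enrichment of 4.67 was below the median of 6.23 over all regions called for RelA. The replicate signal values of RelA were 104.6 and 18.2. The first was at percentile 54.9 of the regions called for RelA and the second at percentile 0.41, close to the lowest value in the table, 18.0. The call was lost when a fold enrichment of at least 5 was required. Over the other 25 regions, RelA reads per kb ranged from 8.64 to 31.4. The median over the 26 regions was 21.2, and over all regions 15.6.

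RelB was called in 5 further regions. At ETS1 +362 kb (chr11:127585162-127586020), the region farthest from the TSS, 89 reads of p50, 290 of p52, 21 of RelA and 64 of RelB were counted. Its 74.5 RelB reads per kb (57.4 to 95.1) came next to those of ETS1 +254 kb, and its 337.6 p52 reads per kb (299.9 to 378.8) were below those of ETS1 +254 kb and ETS1 +89 kb only. p52 was enriched 37.5-fold, p50 12.4-fold and RelB 12.6-fold. At ETS1 +75 kb (chr11:127871302-127873281), within the gene, 287 reads of p50, 526 of p52, 53 of RelA and 79 of RelB were counted on 1980 bp. There p52 was enriched 31.5-fold, p50 16.7-fold and RelB 8.99-fold. FLI1 +63 kb (chr11:128132309-128133885) had 225 reads of p50, 241 of p52, 48 of RelA and 45 of RelB. Its RelB call had the lowest enrichment of the 6, 5.36-fold, whereas p50 was enriched 20.5-fold and p52 24.2-fold. Enrichments of different subunits also differ in scale, with medians over called regions of 9.08 for RelB, 16.8 for p50 and 17.2 for p52. Among the regions called for RelB, its enrichment stood at percentile 71.1 at ETS1 +362 kb, 49.4 at ETS1 +75 kb and 13.3 at FLI1 +63 kb. In the same order, the percentiles were 25.2, 49.6 and 63.5 for p50 and 87.4, 81.4 and 69.8 for p52.

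In the remaining 2 regions RelB was called without p50. At ETS1 +159 kb (chr11:127787868-127788885), 38 reads of p50, 118 of p52, 17 of RelA and 60 of RelB were counted, and enrichment was 19.4-fold for RelB and 17.1-fold for p52. At FLI1 +38 kb (chr11:128107103-128108071), 30 reads of p50, 70 of p52, 17 of RelA and 57 of RelB were counted, and RelB was enriched 12.5-fold. Both had nearly the same RelB reads per kb, 58.9 (45.0 to 75.9) and 58.8 (44.5 to 76.2), at percentiles 92.0 and 91.9 of all regions. Their p50 reads per kb of 37.3 and 31.0 stood at percentiles 8.40 and 5.70. p52 was not called at FLI1 +38 kb, where its reads per kb were 72.2 (56.3 to 91.3), compared with 115.9 (95.9 to 138.8) at ETS1 +159 kb.

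The highest p50 level per kb at the locus was found in FLI1. The FLI1 +61 kb region (chr11:128130661-128131055) is only 395 bp wide and had 122 reads of p50, 71 of p52, 5 of RelA and 3 of RelB. This gave 308.9 p50 reads per kb (256.5 to 368.8), at percentile 98.9 of all regions. p52 reached 179.7 per kb (140.4 to 226.7). By fold enrichment, which does not use the width of a region, p50 was higher at ETS1 +89 kb and ETS1 +254 kb. FLI1 +61 kb was enriched 22.7-fold for p50 and 15.3-fold for p52. The region nearest to a TSS, at +0.53 kb of FLI1 (chr11:128069731-128070656), had 119 reads of p50, 98 of p52, 8 of RelA and 11 of RelB. It was called for p50, with an enrichment of 15.9-fold, and not for p52. Its RelA reads were the lowest per kb at the locus, 8.64 (3.73 to 17.0).

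ETS1 +89 kb (chr11:127857275-127859194), within the gene, had the most reads of p50 and p52 of any region at the locus, with 361 and 684, and 37 of RelA and 72 of RelB. Its width of 1920 bp brought p52 to 356.2 reads per kb (330.0 to 384.0) and p50 to 188.0 (169.1 to 208.5). Enrichment was 52.1-fold for p52 and 39.8-fold for p50, the latter being the highest p50 enrichment at the locus. RelB was not called there, although its 37.5 reads per kb (29.3 to 47.2) were above those of the called FLI1 +63 kb region, 28.5 (20.8 to 38.2). ETS1 +276 kb (chr11:127671824-127672650) had 132 reads of p50, 123 of p52, 10 of RelA and 20 of RelB, and came after ETS1 +89 kb in p50 reads per kb, with 159.6 (133.5 to 189.3). For each subunit, the 3 regions with most reads held 40.9% of the p52 reads, 34.8% of the RelB reads, 33.0% of the p50 reads and 25.7% of the RelA reads counted at the locus.

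The 12 regions called for p52 alone were weaker. Their p52 reads per kb ranged from 77.9 to 153.4, with a median of 109.9, and p52 enrichment ranged from 7.63 to 17.8, with a median of 9.27. Over all regions called for p52 the median enrichment was 17.2. p50 reads were present in all of them and ranged from 19.8 to 115.3 reads per kb. The lowest p50 value of the locus was that of ETS1 +283 kb (chr11:127664117-127664822), with 14 reads of p50 beside 85 of p52, 12 of RelA and 18 of RelB. ETS1 +282 kb, 366 bp further on, had 151 reads of p50, 201 of p52, 27 of RelA and 33 of RelB, and its 115.3 p50 reads per kb (97.6 to 135.2) were above those of 5 regions that were called for p50. The only region upstream of ETS1, at -6.8 kb (chr11:127955009-127955386), was also of this kind, with 26 reads of p50, 40 of p52, 5 of RelA and 7 of RelB and a p52 enrichment of 9.27. So was ETS1 +157 kb (chr11:127790603-127791144), with 39 reads of p50, 53 of p52, 17 of RelA and 23 of RelB, whose 31.4 RelA reads per kb (18.3 to 50.2) came next to those of ETS1 +254 kb without a RelA call.

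Calls and reads did not separate cleanly for p50 and RelB. Regions called for p50 had 69.4 to 308.9 reads per kb (median 135.6), and the 14 not called 19.8 to 115.3 (median 63.6), with 5 of the 14 at or above the lowest called region. Regions called for RelB had 28.5 to 155.3 reads per kb (median 58.9), and the 20 not called 5.12 to 42.8 (median 23.6), with 4 of them at or above the lowest called region. For p52, 1 of the 3 regions not called, FLI1 +0.53 kb, exceeded the lowest called region. A missing call at the locus is therefore not the same as missing reads.

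The balance of p50 and p52 was tilted towards p52 at ETS1. The log2 ratio of p50 to p52 reads was taken relative to its median over all regions, which was -0.10, with an exact binomial 95% interval for each region. At ETS1 the median was -0.68, with a range from -2.46 to 0.20, and 17 of 21 regions were below 0. Of the 21, 11 were in the table through a p52 call alone, which favours a low ratio. All 12 such regions of the locus were below 0. Over the ETS1 regions called for both subunits the median was -0.78, still relative to all regions and not to those called for both. At FLI1 the median was 0.00, with a range from -1.11 to 0.88, and 2 of 5 regions were below 0. The interval lay below 0 in 11 ETS1 regions and 1 FLI1 region (FLI1 +38 kb), above 0 in FLI1 +61 kb alone, and held 0 in the other 13. These intervals cover counting error only, and the share of all regions with an interval below 0 was not computed. The counts therefore describe single regions and are not compared with the rest of the table. The lowest ratio was that of ETS1 +283 kb, -2.46 (-3.43 to -1.67), at percentile 0.35 of all regions, followed by ETS1 +362 kb with -1.60 (-1.96 to -1.25) and ETS1 +159 kb with -1.52 (-2.10 to -0.99). At ETS1 +254 kb the ratio was -1.04 (-1.25 to -0.83), and at FLI1 +61 kb it was 0.88 (0.45 to 1.33).

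**Figure D2:**
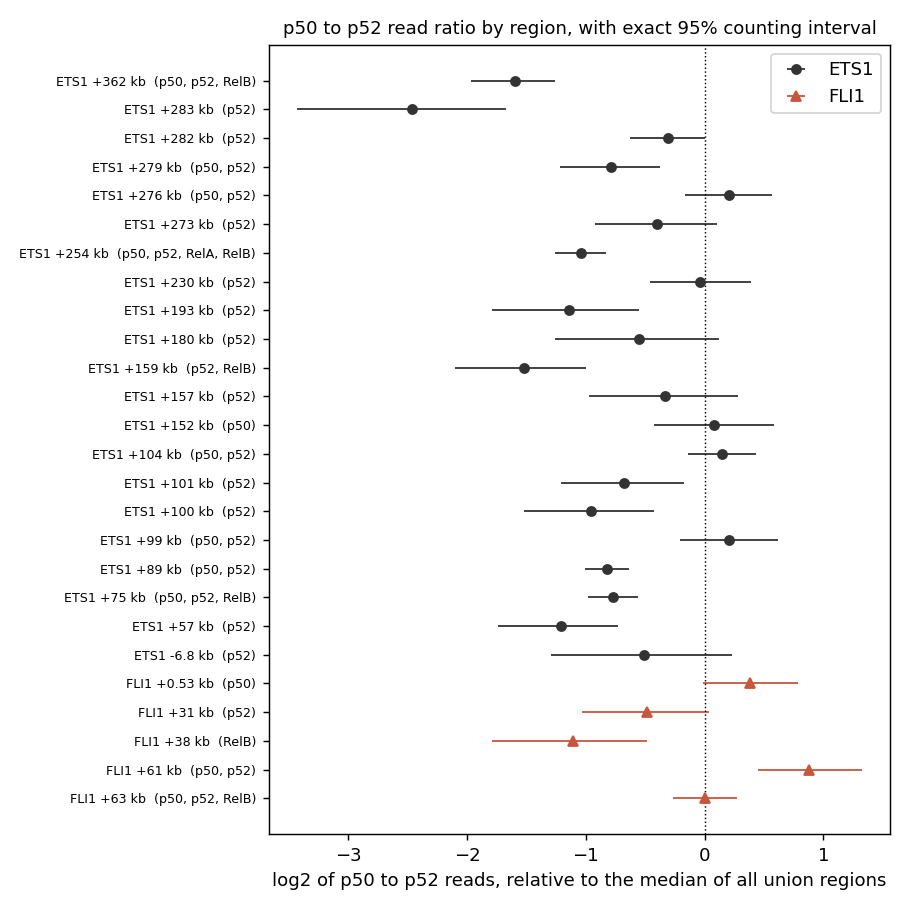
Log2 ratio of p50 to p52 reads relative to the median of all 14865 regions (x axis, dotted line at 0) for each of the 26 regions in the order of their position (y axis, with the called subunits in brackets). Circles are ETS1, triangles FLI1, and bars are exact binomial 95% intervals, which cover counting error only. Of the ETS1 intervals, 11 lie to the left of 0 and none to the right, and FLI1 +61 kb is the only interval to the right.

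Distance from promoters moves with this ratio. Over the 9262 regions of the table that were more than 10 kb from a TSS the median was -0.29, and 61.6% were below 0, and all but 2 of the 26 locus regions are of that kind. Relative to those regions the median was -0.39 at ETS1 and 0.29 at FLI1. Pileups at the summits exist only where both subunits were called. Relative to the median over all regions called for both, the pileup ratios had medians of -0.38 at ETS1 and 0.30 at FLI1. Their baseline and set of regions thus differ from those of the distal comparison. The part of the distance in the ratio at ETS1 was not tested. The p52 antibodies also differed between the samples, and what each antibody contributed to the merged reads cannot be told from these values.

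**Figure D3:**
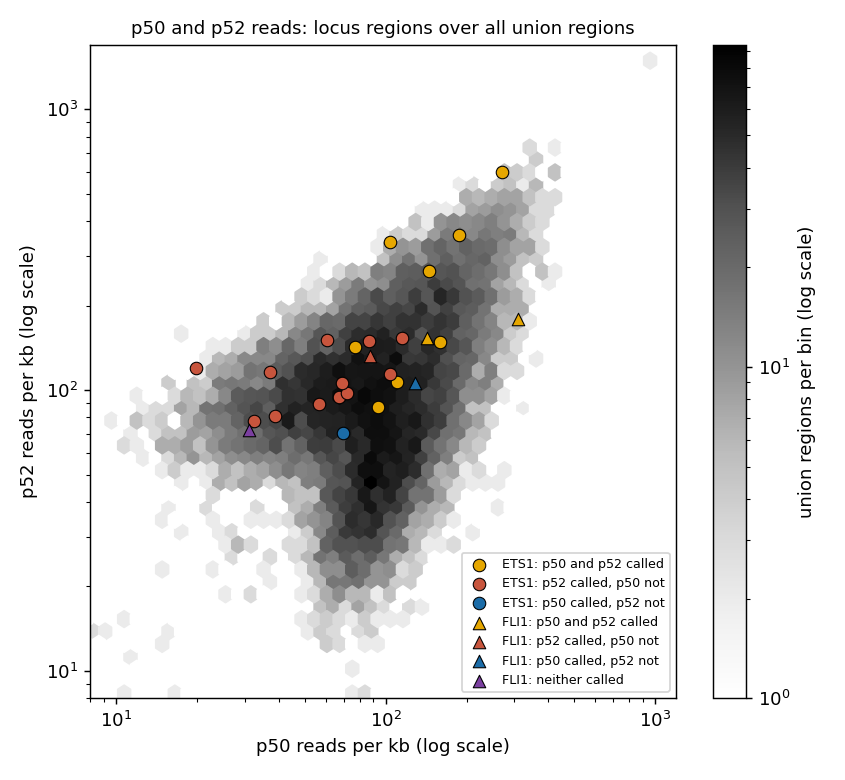
Reads per kb of p52 (y axis) against p50 (x axis), both on log scales, with all regions of the table as grey bins and the 21 ETS1 regions (circles) and 5 FLI1 regions (triangles) coloured by their p50 and p52 calls. ETS1 +254 kb is the uppermost point at 596.7 p52 reads per kb, FLI1 +61 kb the rightmost at 308.9 p50 reads per kb, and ETS1 +283 kb the leftmost at 19.8 p50 reads per kb.

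Across the 26 regions, p50 and p52 reads per kb rose and fell together, with Spearman's rho of 0.692, compared with 0.373 over all regions. For RelB and p52 rho was 0.427 at the locus and 0.465 over all regions, and for RelB and p50 0.12 and 0.286. For RelA and p52 rho was 0.156 and 0.282. These are correlations across regions of the same merged libraries, which share the width of each region, and regions are not replicates.

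RelB relative to p52 differed between regions. As log2 ratio relative to the median of all regions, it was highest at FLI1 +38 kb with 1.83 (1.30 to 2.35), at percentile 95.1. That region was in the table through its RelB call alone, so a high ratio was favoured by the way it entered. ETS1 +159 kb followed with 1.15 (0.68 to 1.61) and ETS1 +157 kb, 1717 bp from it and not called for RelB, with 0.94 (0.15 to 1.65). At ETS1 +254 kb, with most RelB reads, the ratio was 0.19 (-0.09 to 0.44), near the median of all regions. It was lowest at ETS1 +101 kb with -2.54 (-5.06 to -1.16) and at FLI1 +61 kb with -2.23 (-4.75 to -0.83). Both had 3 RelB reads and were in the table through calls of other subunits, which favours a low ratio. At ETS1 +89 kb, the region with most p52 reads, it was -1.11 (-1.49 to -0.77).

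Reproducibility between replicates is given by the IDR of each call and by 2 signal values, 1 for each replicate, which do not say which replicate is which. At the locus the IDR ranged from 1.1e-07 to 0.00803 for p50, from 7e-08 to 0.00870 for p52 and from 1.81e-05 to 0.00172 for RelB. It was 0.00550 for the RelA call. Across the called regions at the locus, Spearman's rho between the 2 signal values was 0.783 for p50 (12 regions), 0.796 for p52 (23 regions) and 0.886 for RelB (6 regions), as a description of regions and not of independent samples. A call already required a low IDR between the same replicates. The low IDR follows from that requirement, which also favours a high rho. ETS1 +254 kb was highest at the locus in both values for p52 (1738 and 3603) and for RelB (1017 and 2298). For p50 the values disagreed on the strongest region. The first was highest at ETS1 +89 kb, with 2213 compared with 1445 at ETS1 +254 kb, and the second at ETS1 +254 kb, with 1903 compared with 1313 at ETS1 +89 kb. The widest disagreement for p52 was at FLI1 +61 kb, where the values of 465.2 and 174.8 stood at percentiles 78.7 and 12.0 of all regions called for p52. The 2 p52 values are from samples made with different antibodies, so they also compare antibodies. For RelB at FLI1 +63 kb, the values of 149.0 and 90.7 stood at percentiles 45.8 and 8.21. These calls and the RelA call at ETS1 +254 kb differed most in percentile between the 2 values.

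**Figure D4:**
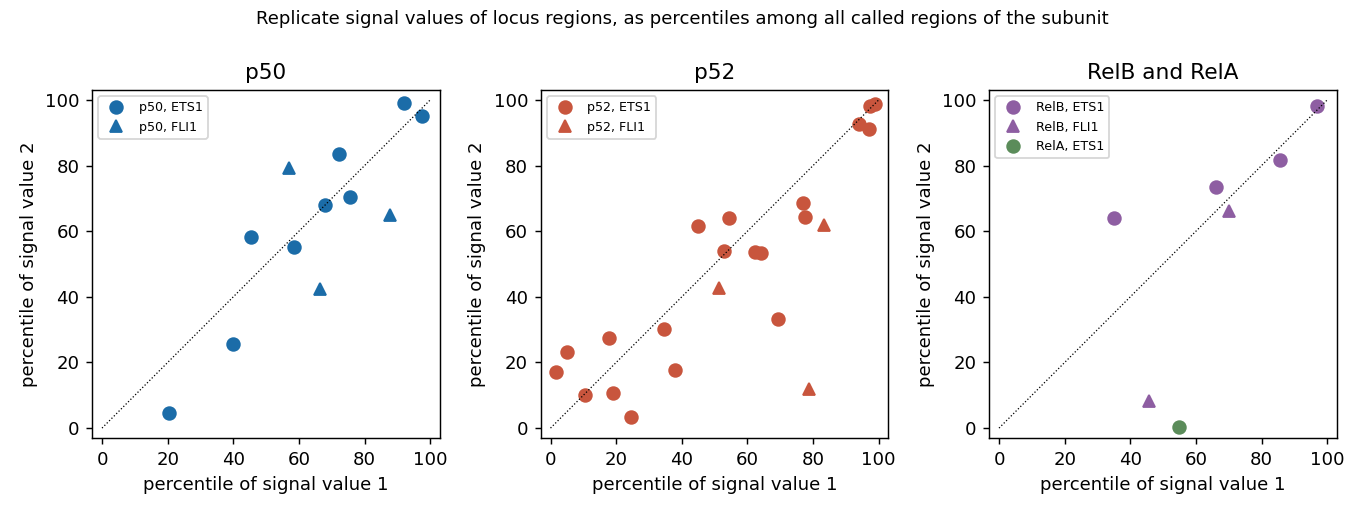
Percentile of signal value 2 (y axis) against signal value 1 (x axis) among all regions called for the subunit, for the locus regions called for p50 (left, 12), p52 (middle, 23), and RelB or RelA (right, 6 and 1). Circles are ETS1, triangles FLI1, and the dotted line marks equal percentiles; the RelA point lies at 54.9 and 0.41 and the p52 point of FLI1 +61 kb at 78.7 and 12.0.

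Where several subunits were called, their summits lay close together. p50 and p52 summits were 1 to 52 bp apart in the 10 regions called for both, with a median of 9.5 bp, compared with 11 bp over the 7643 regions of the table with both summits. The widest distance was at ETS1 +276 kb and the smallest at FLI1 +61 kb. p52 and RelB summits were 2 to 47 bp apart in 5 regions (median 12 bp), compared with a median of 19 bp over 3200 regions of the table. Those of p50 and RelB were 1 to 39 bp apart in 4 regions (median 9 bp), compared with 17.5 bp over 3058 regions. At ETS1 +75 kb the RelB summit was 39 bp from that of p50 and 47 bp from that of p52, while p50 and p52 were 8 bp apart. At ETS1 +254 kb the summits of p50, p52 and RelB, at positions 127694184, 127694187 and 127694185, fell within 3 bp, and the RelA summit, at position 127694157, was 27 bp from that of p50. Over the 395 regions of the table with both summits, RelA and p50 were a median of 21 bp apart.

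The regions came partly in groups. With a limit of 5 kb between neighbours, 14 of the 26 regions formed 4 groups. The locus was chosen by its number of called regions, which favours groups. How often regions group elsewhere in the table was not computed. The group from +283 to +273 kb of ETS1 held 5 regions in 10.7 kb, of which 5 were called for p52, 2 for p50 and none for RelB or RelA. The group from +104 to +99 kb, at the 3′ part of the ETS1 gene, held 4 regions in 7.35 kb, all called for p52 and 2 for p50, with gaps down to 133 bp. The group from +159 to +152 kb held 3 regions in 8.75 kb, and each of these had another combination, namely p52 with RelB, p52 alone and p50 alone. At FLI1, the +61 and +63 kb regions lay 1253 bp apart, and RelB differed between them, with 7.59 reads per kb (1.57 to 22.2) in the first and 28.5 (20.8 to 38.2) in the second. The strongest region, ETS1 +254 kb, stood by itself, 18732 and 23272 bp from its neighbours. When regions less than 1 kb apart were counted as 1, 18 regions remained at ETS1.

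Of the other 25 ETS family genes, 2 could be matched to identifiers of the table. ELF4 had 6 regions, of which 6 were called for p50, 5 for p52 and 4 for RelB. ETV3 had 4 regions, of which 3 were called for p50, 3 for p52 and none for RelB. Neither had a RelA call. Their median log2 ratios of p50 to p52 reads were 0.30 for ELF4 and -0.36 for ETV3, on either side of the median of all regions. The number of regions at ETS1, by which the locus was chosen, was more than 3 times that at ELF4.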

How the data were processed

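ChIP-seq of L1236 cells was analysed from the authors' table of union regions. Per the submitters' notes, CASAVA, Bowtie, SAMtools and build hg18 were used, with versions not given in the sources used here. The authors kept uniquely mapping reads, removed duplicates, reduced libraries to a common number of reads, called peaks with MACS on merged replicates, kept those reproducible between replicates and joined overlapping peaks of different subunits. The deposited read counts are whole reads per region, without normalization. Whether they were taken before or after the reduction is not stated. Fold enrichment was deposited as a ratio of ChIP over input at the summit, and pileup as coverage signal there. The authors' IDR, the irreproducible discovery rate, is a fraction, and their FDR is a q-value, with thresholds of 0.05 for each in the methods. The deposited signal values are a score per replicate whose scale is not named. The authors took distances to genes and TSSs (up to 1 Mb) from Ensembl version 54, and the gene ends and TSS positions were derived from them.

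Samples were grouped by their labels (p50 2, p52 2, RelA 2, RelB 2, input 6). Reads were divided by region width, with exact Poisson intervals, and ratios were computed as log2 of reads with 0.5 added, with Clopper-Pearson intervals. Reads exist for merged replicates only, and the replicate signal values name no replicate, so no test was made. The precision of the read values is set by the reads in each region. The formulas were tested on simulated data. The members and gene lists were chosen with earlier results of these data known. Described in full were regions overlapping a TSS (there were none), those called for RelA or RelB, and the 3 with the most reads per kb for each subunit; others, among them FLI1 +0.53 kb, were chosen after their values were seen. The table pairs no symbols with identifiers. Of 27 ETS family symbols, 4 could be matched through the study's supplementary gene lists or the definition of the locus, and 23 were not analysed. Motifs and sequences were not analysed here. Alternatives were other assignments, stricter calls, other measures of strength, other scalings and other distance windows. Calculations ran in Python 3.11.15 with scipy 1.17.1, pandas 2.3.3, numpy 2.4.6 and matplotlib 3.10.9.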

Additional observations from a re-analysis of the deposited data

How the results depend on the processing

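Of 86 alternative values for 16 results, 65 stayed within the limits set for a change, 20 moved and 1 changed sign. The assignment by closest gene or closest TSS alone, an FDR below 1e-05 and an IDR below 0.01 changed no count. All calls of the table already had an IDR below 0.01. Alternatives chosen after seeing the data were an IDR below 0.001, joining regions less than 1 kb apart, ratios over regions called for both subunits, and ratios relative to regions beyond 10 kb of a TSS. RelA calls fell from 1 to 0 with a fold enrichment of at least 5 and to 0 with an IDR below 0.001, which left 14 ETS1 regions, 17 p52 calls and 11 p50 calls. The p52 calls lost were those of ETS1 +273, +193, +180, +157, +100 and -6.8 kb. All of these regions had been called for p52 alone, so the most frequent combination depends on the IDR limit. The median p50 to p52 ratio at ETS1, -0.68, was -0.78 without scaling, -0.38 from pileups, -0.40 from fold enrichment, -0.78 over regions called for both and -0.39 relative to distal regions. At FLI1, 0.00 became -0.10 without scaling (a change of sign), 0.30 from pileups, 0.28 from fold enrichment, 0.44 over regions called for both and 0.29 relative to distal regions. Ratios from pileups and fold enrichment were relative to the median over regions called for both. Read ratios over regions called for both were relative to the median over all regions. The median of RelA was 19 reads per region, compared with 21.2 per kb. A window of 10 kb around the TSS held 2 regions. The strongest p50 region, FLI1 +61 kb by reads per kb, became ETS1 +89 kb (89.0 kb) by reads per region, fold enrichment, pileup or signal value 1, and ETS1 +254 kb (253.7 kb) by signal value 2. By reads per region, ETS1 +89 kb (89.0 kb) came first for p52 and ETS1 +75 kb (75.0 kb) for RelA. The causes were not tested. No paired analysis was possible because the reads are from merged replicates and the signal values do not name their replicate. Low counts limit the precision of RelA, with 5 to 53 reads per region, and of RelB, with 3 to 151.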
